A study of Arabidopsis thaliana with 18 samples.

Results

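The average response of Arabidopsis thaliana roots to the bacterium WCS417 was taken over 3 genotypes, with attention to changes of less than 0.5 on the log2 scale (1.41-fold) that had the same sign in all 3. WCS417 is a Pseudomonas strain of the root surface that promotes plant growth and primes systemic resistance. All 18 arrays of the series were used, 9 of roots with WCS417 and 9 of untreated roots (Ctrl), with 3 arrays in each of 6 groups. The groups were myb72-2 with WCS417, oxMYB72 with WCS417 and Col-0 with WCS417, followed by untreated myb72-2, untreated oxMYB72 and untreated Col-0. The mutant myb72-2 is in the Col-0 background. oxMYB72 carries 35S:FLAG-MYB72, a tagged gene under a constitutive viral promoter that is active in most cells, in the myb72-2 background, so both lines carry the myb72-2 mutation. Seedlings grew on agar with sucrose and then on agar with 50 µM iron as Fe(III)EDTA. They received 10 µl of bacterial suspension per root at 17 days, and roots were taken from 19-day-old seedlings, which is 2 days later. The series text calls the replicates biological, and the number of arrays limits the precision.

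MYB72 is a transcription factor of root epidermis and cortex that WCS417 and iron shortage induce, and BGLU42, a beta-glucosidase, acts downstream of it. Roots that meet such bacteria are known to change iron uptake, coumarin secretion, cell walls, lateral root growth and immune signalling. The 3 genotypes differ in MYB72. An average can be carried by 1 of them, so the sign in each was read beside it. MYB72 itself is not reported here, because no annotated probe set carries its name, and the genotypes could not be checked against it.

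Across the 22746 probe sets, deposited values ran between 2.42 and 14.63 on the log2 scale, array medians between 6.29 and 6.41, and correlations of replicate arrays between 0.9913 and 0.9977. Of 14 root markers 1 was measured under a single gene name, the root hair expansin EXPA7, whose level ran from 8.66 to 9.19 with WCS417 and from 7.76 to 8.79 in Ctrl. Of 12 markers of green shoots 3 were measured. LHCB4.1, an antenna protein of photosystem II, lay between 7.30 and 7.86 with WCS417 and between 8.17 and 8.98 in Ctrl, so transcripts typical of green tissue were present in these roots. In bulk samples, fewer cells of a type and less RNA per cell cannot be told apart. CLV3, a peptide of the shoot meristem, stayed at 3.13 to 3.55 with WCS417 and 3.11 to 3.43 in Ctrl. In the revised control probe sets, the 3′ minus 5′ difference of actin, which grows as RNA degrades, lay between 1.2 and 1.48 with WCS417 and between 1.1 and 1.34 in Ctrl. Its mean was larger by 0.10 with WCS417 (exact permutation within genotypes, two-sided, adjusted over 3 transcripts, p = 0.0484). For GAPDH the difference was larger by 0.11 (exact permutation, adjusted p = 0.0262), and for ubiquitin it was -0.05 (exact permutation, adjusted p = 0.264). The first control probe sets for the same transcripts gave differences of -0.13, -0.17 and -0.00306 for actin, GAPDH and ubiquitin, with exact adjusted p-values of 0.537, 0.323 and 0.934.

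Most changes called in the average were small. In limma, 8549 probe sets (37.6% of those tested) were called at an adjusted p under 0.05. Of these 4114 (18.1%) were higher with WCS417 and 4435 (19.5%) were lower. Small changes made up 6604 of the calls (77.2%), while 1500 lay between 0.5 and 1 and 445 reached 1 or more. Of the small ones 6152 (93.2%) had the same sign in all 3 genotypes, 3000 higher (13.2% of all probe sets tested) and 3152 lower (13.9%). Signs were the same in 59.1% of all probe sets, called or not. A median small rise was 0.28 on the log2 scale, or 21.2%, and at the median the small falls decreased by 18.4% (-0.29). When the mean of the 3′ minus 5′ differences of actin and GAPDH was added to the model as a covariate, 4526 probe sets were called and 2263 were small and of the same sign. With the first control probe sets as the covariate, a fit added after the data were seen, these counts were 8378 and 6019. The part of RNA quality in the small changes was not tested beyond these fits.

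**Figure D1:**
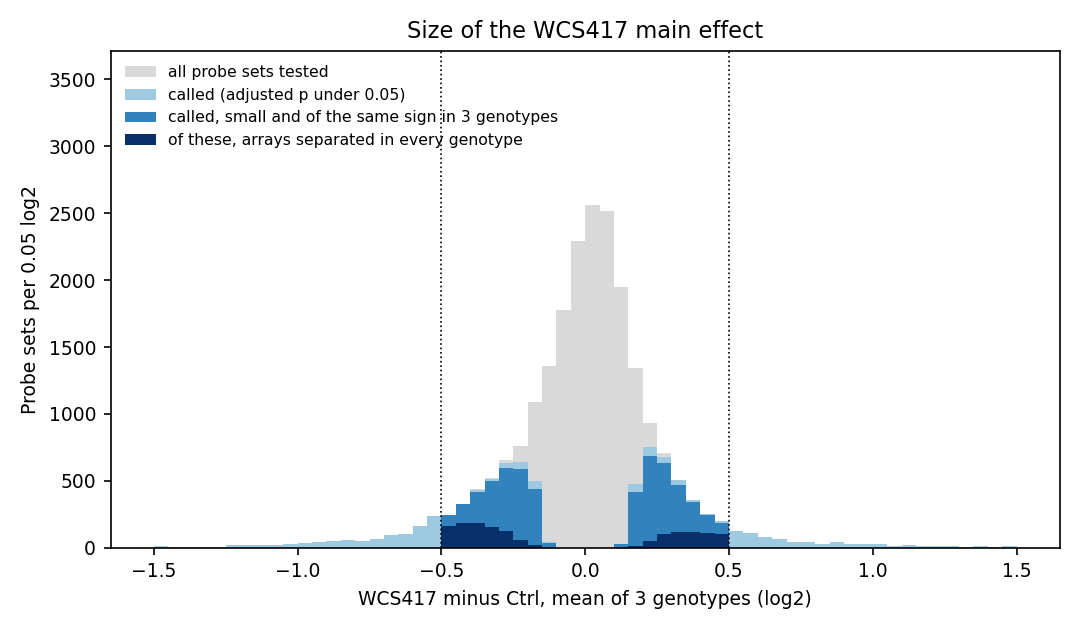
Mean WCS417 minus Ctrl difference over the 3 genotypes (log2, x axis) against the number of probe sets per 0.05 log2 (y axis), for all 22746 probe sets, the 8549 called, the 6152 called that were small and of the same sign, and the 1529 of these whose arrays did not overlap in any genotype. Dotted lines mark the bound of 0.5 on either side, and the 155 probe sets beyond 1.5 are not drawn.

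Few of the small same-sign changes were called in all 3 genotypes taken alone. Alone, myb72-2 gave 4870 calls (21.4%), oxMYB72 gave 4391 (19.3%) and Col-0 gave 3491 (15.3%). Of the 6152 small same-sign changes, 2026 (32.9%) were called in none of the 3 genotypes taken alone, 2481 (40.3%) in 1, 1203 (19.6%) in 2 and 442 (7.18%) in all 3. The median standard error was 0.07 for the average and 0.12 within a genotype. Among single-gene probe sets, the smallest called rise was in GRXC2, a glutaredoxin. Its levels were 11.51, 11.56 and 11.61 (lowest, median, highest) with WCS417 and 11.32, 11.42 and 11.49 in Ctrl. The 9 WCS417 arrays of GRXC2 lay above all 9 Ctrl arrays, yet the mean rise was 0.13 ± 0.05 (standard error from limma, as for all errors below; adjusted p = 0.047). AT2G35330 had the smallest called fall among single-gene probe sets, -0.13 ± 0.05 (limma adjusted p = 0.0457). Its arrays overlapped, at 7.3 to 7.5 with WCS417 and 7.42 to 7.70 in Ctrl. Neither of these limiting calls held with the RNA quality covariate, whose adjusted p was 0.299 for GRXC2 and 0.393 for AT2G35330. At the bound of 0.5, AT1G18470 (-0.499992) fell just inside the small class and AT5G64180 (-0.500038) just outside it.

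Separation of the arrays gave a stricter view. In 1529 of the small same-sign changes (24.9%), the 3 WCS417 arrays lay wholly on one side of the 3 Ctrl arrays in every genotype, 627 above and 902 below. Among all probe sets tested 5.43% were separated upward and 8.05% downward. Of the same-sign changes between 0.5 and 1, 78.8% were separated, and of those of 1 or more, 90.8%. Small calls also depended on brightness: they made up 5.19%, 19.0%, 31.8%, 38.4% and 41.0% of the probe sets in 5 equal bins of mean level, dimmest first.

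A genotype not used for choosing carried the small changes too. Small same-sign calls were chosen from 2 genotypes and then read in the third, a check added after the data were seen, in which the 2 responses share no arrays with the third. With myb72-2 held out, 92.6% of 2404 rises and 97.2% of 2351 falls had the same sign there, against 49.7% and 50.3% of all probe sets with those signs. The shares were 90.5% and 89.1% in oxMYB72, against 56.3% and 43.7%. In Col-0 they were 95.2% and 97.9%, against 50.1% and 49.9%. The median difference in the held-out genotype was 0.25 for rises and -0.36 for falls in myb72-2, 0.33 and -0.22 in oxMYB72, and 0.24 and -0.29 in Col-0.

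Responses were also compared between genotypes. The moderated F test of the 3 responses called 510 probe sets (2.24%). Among the probe sets called in the average, it called 154 of the 6604 small changes, 127 of the 1500 between 0.5 and 1, and 138 of the 445 of 1 or more. Of the 6152 small same-sign changes it called 26, but asking for 1 sign in every genotype removes differing responses by itself, so nothing is read from that count. A test that misses its threshold does not show equal responses. Without oxMYB72 the same test between myb72-2 and Col-0 called 4 probe sets, and without untreated oxMYB72 replicate 2 it called 328.

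Among single genes with small and fully separated falls, the clock and flowering regulator GI (GIGANTEA) was the only one of the leading 10 with a gene symbol in the annotation. GI levels were 9.12, 9.32 and 9.54 (lowest, median, highest of 9) with WCS417 and 9.66, 9.82 and 9.88 in Ctrl. All 9 WCS417 arrays lay below all 9 Ctrl arrays. GI fell by 27.4% (-0.46 ± 0.05, limma adjusted p = 3.19e-07), with -0.57 in myb72-2, -0.34 in oxMYB72 and -0.47 in Col-0, each called. The other 9 falls are known here by locus only, and their means lay between -0.50 and -0.46. AT1G33970 led them, with 8.26, 8.36 and 8.76 with WCS417 against 8.78, 8.92 and 9.10 in Ctrl, a fall of -0.50 ± 0.05 (limma adjusted p = 1.71e-07). AT4G09670 was the most even, at -0.48 in myb72-2, -0.41 in oxMYB72 and -0.51 in Col-0, and its arrays spanned 7.96 to 8.16 with WCS417 and 8.44 to 8.62 in Ctrl. AT4G13180 was the least even, at -0.24 in myb72-2, where it was not called (adjusted p = 0.0715), -0.78 in oxMYB72 and -0.39 in Col-0, although the F test did not call it (adjusted p = 0.0641). AT4G31410, AT3G04010, AT5G08520, AT1G02816, AT3G01520 and AT5G54870 complete the group, and each was called in all 3 genotypes.

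None of the 10 leading small rises had a symbol. AT2G45750 had levels of 9.02, 9.26 and 9.44 with WCS417 and 8.55, 8.75 and 8.97 in Ctrl, which did not overlap. It rose by 40.6% (0.49 ± 0.06, limma adjusted p = 7.24e-07), and the rise was 0.49 in myb72-2, 0.54 in oxMYB72 and 0.45 in Col-0. AT5G20160, one of the brightest, rose by 0.42 ± 0.05 (limma adjusted p = 1.19e-06), with 11.07 to 11.27 with WCS417 and 10.55 to 10.97 in Ctrl. AT3G01720 overlapped between genotypes, with 9.50 to 10.09 with WCS417 and 9.0 to 9.71 in Ctrl, but not within any of them, and it rose by 0.44 ± 0.05. AT5G44720 was called in myb72-2 (0.65) and Col-0 (0.52) and missed the threshold in oxMYB72 (0.30, adjusted p = 0.0558). AT1G27620, AT2G37500, AT4G31810, AT3G08030, AT1G16740 and AT1G53645 rose in the average by 0.39 to 0.50 and were called in all 3 genotypes.

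**Figure D2:**
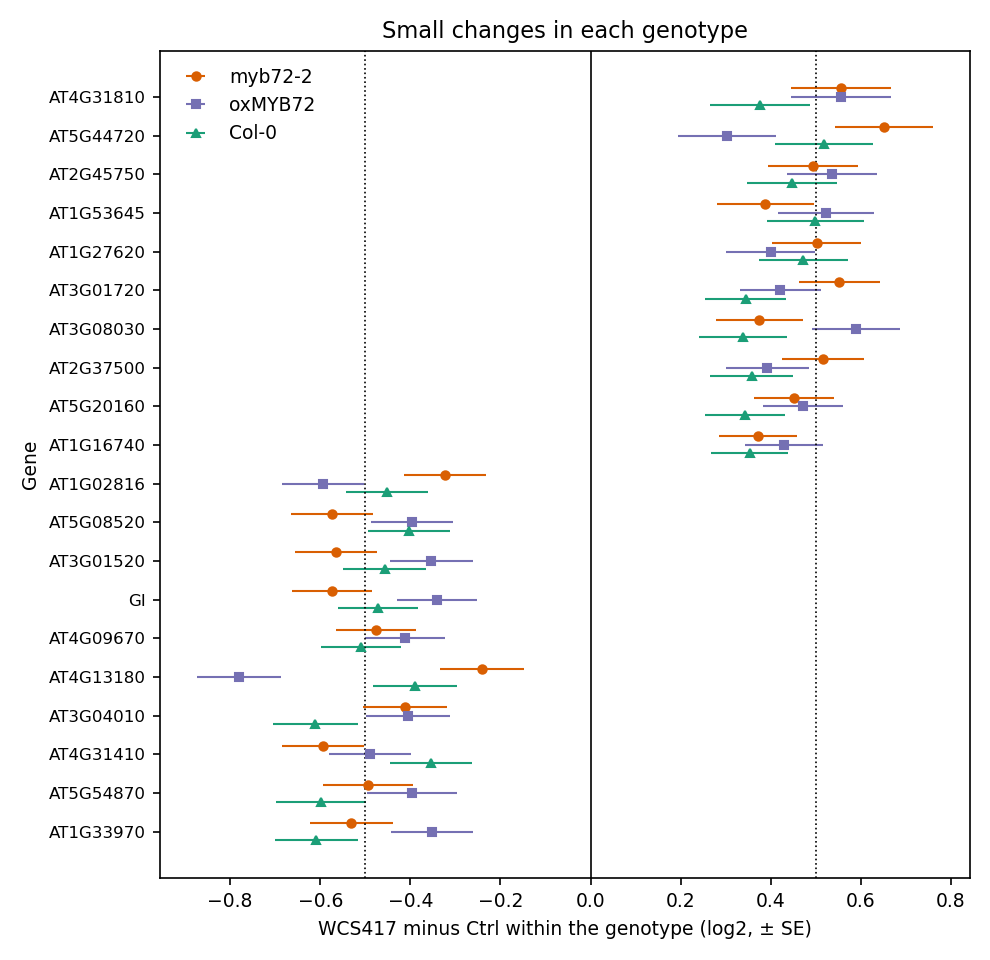
WCS417 minus Ctrl difference within each genotype (log2, x axis, ± standard error) for the 10 leading small rises and 10 leading small falls (y axis), with circles for myb72-2, squares for oxMYB72 and triangles for Col-0. Every difference lies on the side of 0 of its gene's mean, as the choice of these genes required. The differences of AT4G13180 spread most, from -0.78 in oxMYB72 to -0.24 in myb72-2.

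The leading changes between 0.5 and 1 held both even and uneven responses. TAAC, a carrier of ATP and ADP, rose by 0.92 ± 0.06, with 8.25 to 8.86 with WCS417 and 7.58 to 7.80 in Ctrl. ARL, an ARGOS-like protein of organ growth, rose by 0.86 ± 0.06, but its rise was 1.11 in myb72-2, 0.43 in oxMYB72 and 1.03 in Col-0 and differed between them (limma F test, adjusted p = 0.0253). UGT72E1, a glucosyltransferase of phenylpropanoids, rose by 0.81 ± 0.06, most of it in oxMYB72 (1.57) against 0.37 in myb72-2 and 0.49 in Col-0 (limma F test, adjusted p = 1.09e-05). AT3G18560 (0.88) and AT3G60540 (0.88) complete the rises. OCT5, a transporter of the carnitine family, was the most even of the falls, at -0.83 in myb72-2, -0.79 in oxMYB72 and -0.81 in Col-0. Its levels were 6.57 to 7.08 with WCS417 and 7.51 to 7.86 in Ctrl. AT3G53980 (-0.997), AT5G12420 (-0.85), AT1G22430 (-0.78) and AT2G03200 (-0.85) fell as well, each in all 3 genotypes.

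Gene groups are described by counts over the 13350 genes named by a single probe set or their brightest one. Of these genes 34.5% were called, 17% higher and 17.5% lower, and 12.6% were small same-sign rises and 12.7% small same-sign falls. Their median difference was 0.02. The groups were chosen with earlier results of these data known, and those given below are the 20 with the highest share of called members among lists of 5 or more, after leaving out earlier lists that shared over 50% of their members with a wider list used in their place. Since this choice used the same arrays, group means that do not overlap between treatments follow in part from it. They are given as description only.

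Most of the measured genes of cell division were called higher, by small steps in the main. Of 28 measured members 18 were called higher (16 of them small and of the same sign in all genotypes), 2 were called lower, and the median was 0.31. Over all members the mean level was 6.96 to 7.25 with WCS417 and 6.76 to 7.02 in Ctrl, and these ranges overlapped. The spindle checkpoint genes BUB3.1 and BUBR1 had the largest rises of the list. BUBR1 had levels of 6.12, 6.31 and 6.66 with WCS417 and 5.53, 5.83 and 5.91 in Ctrl and rose by 0.53 ± 0.07 (limma adjusted p = 2.4e-06). Its rise was 0.48 in myb72-2, 0.72 in oxMYB72 and 0.40 in Col-0, called in each. BUB3.1 rose by 0.53 ± 0.07 and its relative BUB3.2 by 0.43 ± 0.08. Among genes of chromosome proteins, HTR12, the histone H3 of centromeres, rose by 0.44 ± 0.06, topoisomerase TOPII by 0.46 ± 0.06 and the histone HTB2 by 0.46 ± 0.08. The histones HTB11 (-0.15 ± 0.10) and HTB4 (-0.06 ± 0.05) and the chromatin protein 3xHMG-box1 (0.12 ± 0.13) were not called. HTR12 arrays lay between 5.58 and 5.92 with WCS417 and between 5.07 and 5.51 in Ctrl, with no overlap. KINESIN-12B, a motor of the division plane, rose by 0.45 ± 0.07, and Haspin, a mitotic kinase, by 0.46 ± 0.10. Replication genes included PRL, the MCM7 subunit of the replicative helicase (0.32 ± 0.07), ICU2, a catalytic subunit of DNA polymerase alpha (0.35 ± 0.08), and POLD3 (0.34 ± 0.06). The members that fell were SKP2A, an F-box protein that acts on cell cycle regulators (-0.66 ± 0.06), and SIM (SIAMESE), an inhibitor of cyclin-dependent kinases that promotes endoreduplication (-0.32 ± 0.07). SKP2A levels were 6.74 to 7.36 with WCS417 and 7.59 to 7.91 in Ctrl. With the RNA quality covariate 14 were higher and 2 lower.

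Most of the measured autophagy genes fell. Autophagy wraps cell contents in a membrane carrying ATG8 proteins and takes them to the vacuole. Of 11 measured members 10 were called lower and none higher, with a median of -0.55 and 9 of 11 separated in every genotype. Their mean level was 8.68 to 9.10 with WCS417 and 9.24 to 9.41 in Ctrl, so that no array of one treatment overlapped the other. ATG8B had levels of 6.85, 7.15 and 7.35 with WCS417 and 7.80, 7.85 and 8.24 in Ctrl and fell by 41.2% (-0.77 ± 0.07, limma adjusted p = 9.37e-09). The fall was -0.81 in myb72-2, -0.80 in oxMYB72 and -0.69 in Col-0. ATG8E (-0.69 ± 0.10), ATG8F (-0.57 ± 0.07), ATG8C (-0.55 ± 0.11), APG8A (-0.55 ± 0.08) and APG8H (-0.54 ± 0.07), all of the ATG8 family, fell by over 0.5. ATG8H (-0.42 ± 0.08) and ATG8D (-0.29 ± 0.06) fell by less. ATG3, the enzyme that conjugates ATG8 to lipid, fell by 0.31 ± 0.05 on the log2 scale, with 8.58 to 8.93 with WCS417 and 8.94 to 9.19 in Ctrl. AT5G66930, the ATG101 subunit of the initiating kinase complex, fell by 0.69 ± 0.07 on the log2 scale. ATG8G differed by -0.01 ± 0.06 and was not called (limma adjusted p = 0.935). The ATG8 genes are close relatives, and probes that read more than 1 of them were not looked for. With the covariate 9 of the 11 were lower.

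**Figure D3:**
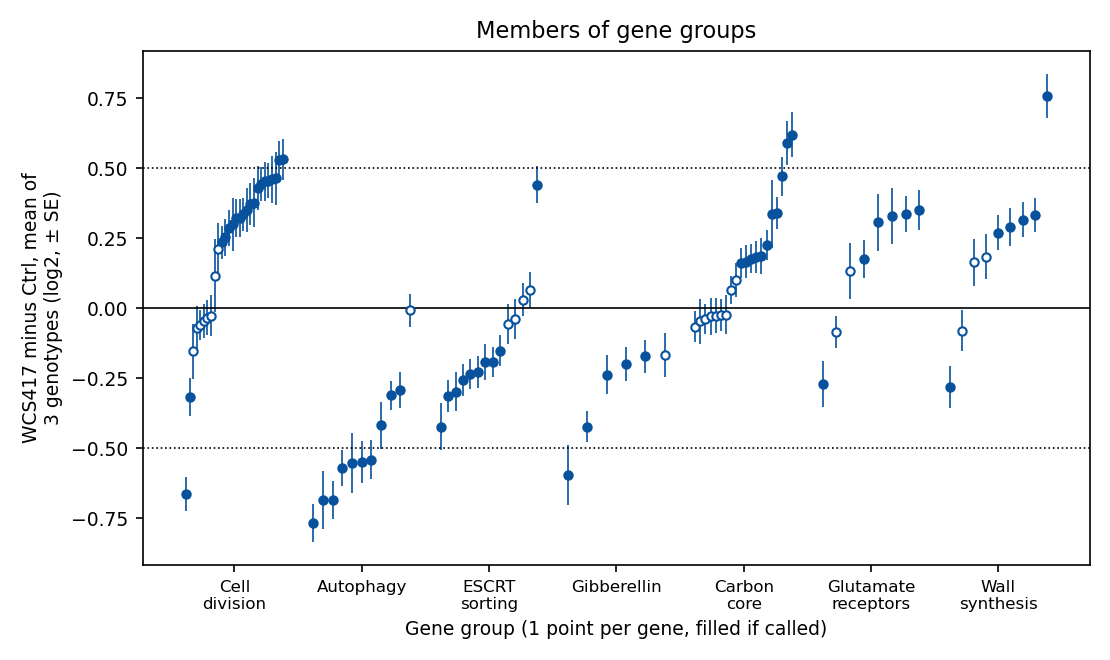
Mean WCS417 minus Ctrl difference over the 3 genotypes (log2, y axis, ± standard error) of each measured member of 7 gene groups (x axis), ordered by value, with filled points for called members. Cell division members run up to 0.53, apart from 8 members that lie below 0, of which SKP2A and SIM are called, whereas 10 of 11 autophagy members and 5 of 6 gibberellin members are called below 0.

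Genes of ESCRT, the complexes that sort membrane proteins into vesicles bound for the vacuole, included more falls than rises. Of 14 members 9 were called lower, all of them small and of the same sign, 1 was higher, and the median was -0.19. Member means were 8.02 to 8.16 with WCS417 and 8.18 to 8.23 in Ctrl, with no overlap. VPS20.1, an ESCRT-III subunit, had 7.53, 7.93 and 8.21 with WCS417 and 8.16, 8.32 and 8.51 in Ctrl and fell by 25.4% (-0.42 ± 0.08, limma adjusted p = 0.000324). VPS60.2 (-0.32 ± 0.06) and the ESCRT-I subunit ELC (-0.30 ± 0.07) fell as well. VPS2.2 went the other way, by 0.44 ± 0.07 (limma adjusted p = 1.81e-05), at 7.95 to 8.23 with WCS417 and 7.26 to 7.94 in Ctrl. Its relative VPS2.1 fell by 0.15 ± 0.06 on the log2 scale. With the covariate 4 members were lower and 1 was higher, and 5 were lower when tested against a minimum difference of 0.1.

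Most of the measured genes of gibberellin perception were lower. Gibberellin binds GID1 receptors, which hand DELLA repressors to the F-box protein SLY1 for removal. Of 6 members 5 were called lower, 4 of them small and of the same sign, and the median was -0.22. GID1A had 7.53, 7.65 and 7.81 with WCS417 and 7.84, 8.13 and 8.38 in Ctrl, with no overlap, and fell by 0.42 ± 0.05 on the log2 scale (limma adjusted p = 2.37e-06). The fall of GID1A was -0.67 in myb72-2, -0.16 in oxMYB72, where it was not called, and -0.44 in Col-0. GID1C fell by 0.60 ± 0.11 and GID1B by 0.24 ± 0.07 on the log2 scale. SPY, a repressor of the pathway, fell by 0.20 ± 0.06 and SLY1 by 0.17 ± 0.06, while SLY2 differed by -0.17 ± 0.08 and was not called (limma adjusted p = 0.102). The counts depended on single genotypes: 2 members were lower without myb72-2, 3 with the RNA quality covariate and 2 against a minimum difference of 0.1.

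The called enzymes of the central carbon pathways were all higher. Of 20 members, from glycolysis, the citrate cycle and their links, 11 were called higher (9 small and of the same sign), none lower, and the median was 0.16. Member means were 9.35 to 9.44 with WCS417 and 9.14 to 9.31 in Ctrl, with no overlap. PGM, here a phosphoglycerate mutase, had 8.96, 9.33 and 9.53 with WCS417 and 8.43, 8.72 and 8.98 in Ctrl and rose by 0.62 ± 0.08 (limma adjusted p = 3.11e-06). SDH1-2, a subunit of succinate dehydrogenase, rose by 0.59 ± 0.08 and the isocitrate dehydrogenase IDH-VI by 0.47 ± 0.07. Enolase ENOC rose by 0.34 ± 0.06, and MAB1, a subunit of mitochondrial pyruvate dehydrogenase, by 0.23 ± 0.05. The 4 ATP-citrate lyase genes (ACLA-1, ACLA-2, ACLA-3 and ACLB-1) lay between -0.07 and -0.03 and were not called. Without myb72-2, without Col-0 and with the covariate, 6 members were higher in each case, and 4 were higher against a minimum difference of 0.1.

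Among wall genes more were called higher than lower. Of 9 synthesis genes 5 were called higher and 1 lower, with a median of 0.27, and with the RNA quality covariate 3 were higher and 0 lower. CSLC12, a glucan synthase of the family that makes the xyloglucan backbone, rose by 0.76 ± 0.08, at 4.61 to 5.25 with WCS417 and 3.98 to 4.34 in Ctrl, and its rise was 0.77 in myb72-2, 0.79 in oxMYB72 and 0.72 in Col-0. CSLC04 of the same family rose by 0.33 ± 0.06, and IRX15, a gene of xylan synthesis, fell by 0.28 ± 0.08 on the log2 scale. Among 29 expansins and xyloglucan-modifying enzymes 14 were called higher and 4 lower, with a median of 0.20. With the covariate 10 of them were higher and 3 lower. XTH26 rose by 2.44 ± 0.11 and XTH33 by 0.91 ± 0.07, while XTH21 fell by 1.06 ± 0.11 on the log2 scale. EXPA7, the root hair expansin, rose by 0.48 ± 0.09 (limma adjusted p = 0.000222) and was separated in every genotype.

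Most nuclear genes of photosynthesis were lower, and the mean level of the group lay below the array medians (6.29 to 6.41). Of 27 members 20 were called lower and 1 higher, and the median was -0.53. Member means ran from 5.31 to 5.54 with WCS417 and from 5.65 to 6.10 in Ctrl. With the RNA quality covariate 15 were lower and 0 higher, and against a minimum difference of 0.1 these counts were 16 and 0. LHCB4.2, an antenna protein, had 5.41, 5.74 and 5.86 with WCS417 and 6.46, 7.05 and 7.25 in Ctrl and fell by 1.198 ± 0.079 on the log2 scale (limma adjusted p = 1.15e-10). PSBY, a subunit of photosystem II, fell by 0.92 ± 0.07, and RCA, the activase of Rubisco, by 0.80 ± 0.07. In chlorophyll synthesis, CHLM fell by 0.62 ± 0.06 and PORB by 0.56 ± 0.10, but CHLI2 was called higher (0.21 ± 0.08). Of the earlier steps shared with haem, GSA1 (0.25 ± 0.06) and HEMB1 (0.20 ± 0.06) rose (limma adjusted p = 0.00375 and 0.00855), as did HEME1 (0.17 ± 0.06). HEMA2, HEMA3, hemb2, HEME2 and hemf2 of these steps were not called. HEMB1 lost its call with the covariate (adjusted p = 0.118), and so did GSA1 (adjusted p = 0.063). These genes also serve as marks of green tissue, and their array means moved with the same treatment as every group above. Their part in the other groups was not tested.

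**Figure D4:**
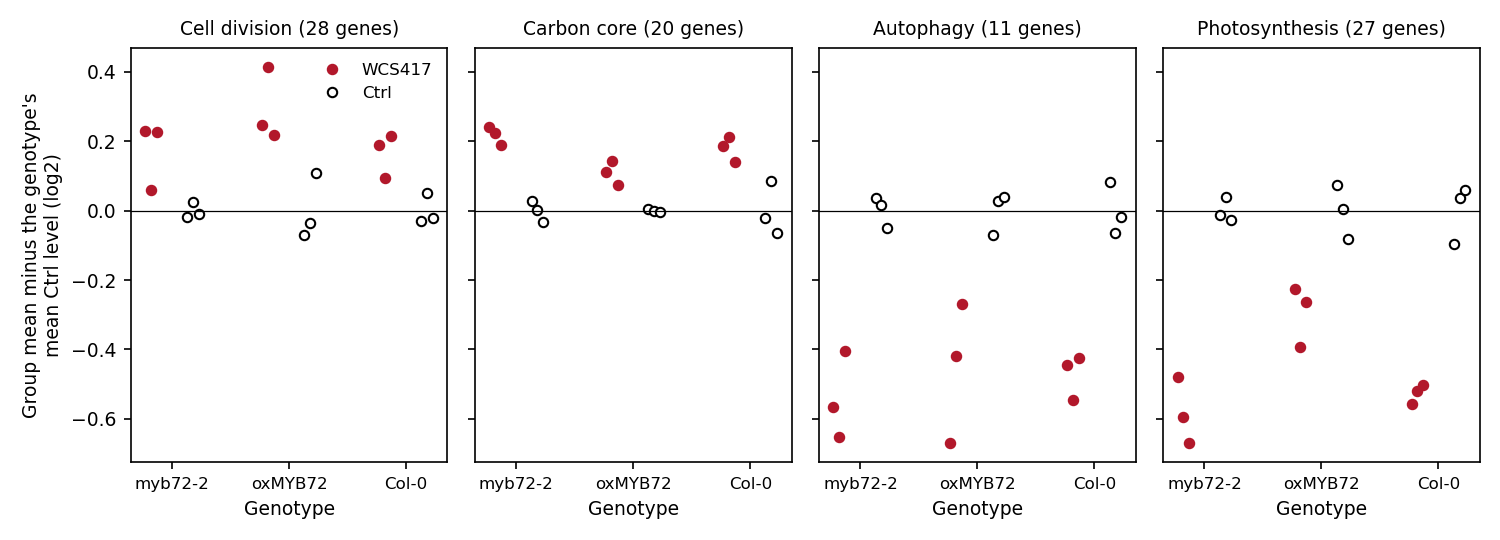
Mean level of 4 gene groups on each array, minus the mean Ctrl level of the same genotype (log2, y axis), in myb72-2, oxMYB72 and Col-0 (x axis), with filled points for WCS417 to the left of open points for Ctrl. The WCS417 arrays lie above 0 for cell division and the carbon core and below 0 for autophagy and photosynthesis in each genotype. Differences in Ctrl level between genotypes are not visible on this scale.

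Regulators of the iron response split. Of 14 genes of iron and zinc homeostasis 4 were called higher and 4 lower, with a median of -0.003, and with the RNA quality covariate 2 were lower. The bHLH factors that act at the top of the iron deficiency cascade were divided. bHLH121 had 7.31, 7.59 and 7.86 with WCS417 and 7.97, 8.24 and 8.45 in Ctrl and fell by 0.63 ± 0.07 on the log2 scale (limma adjusted p = 7.47e-07). ILR3 (bHLH105) fell by 0.29 ± 0.05 and bHLH104 by 0.37 ± 0.08, both small and separated in every genotype. bHLH34 of the same clade rose by 0.35 ± 0.07, and PYE, which ILR3 is known to pair with, rose by 0.31 ± 0.07. Of the other bHLH factors, bHLH115 differed by -0.13 ± 0.06 and was not called. ILR3 lost its call with the covariate (-0.25, adjusted p = 0.0565). BHLH101, a target of these factors, rose in the average by 0.65 ± 0.10, but its response was -0.07 in myb72-2, 1.56 in oxMYB72 and 0.46 in Col-0 (limma F test, adjusted p = 0.000641). All 5 measured coumarin genes were called higher, and the response of all 5 differed between genotypes. Among them BGLU42 rose by 0.66 in myb72-2, 2.35 in oxMYB72 and 2.17 in Col-0.

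Sulfur and methionine genes were called in 8 of 10 cases, 3 higher and 5 lower (median -0.26), and each of the 8 but ARD4 moved by over 0.5. MGL, a methionine gamma-lyase, fell by 2.07 ± 0.14 on the log2 scale, at 5.43 to 6.27 with WCS417 and 7.31 to 8.38 in Ctrl. SUFE2, an activator of sulfur transfer to iron-sulfur clusters, fell by 1.49 ± 0.09. APS3, an ATP sulfurylase, rose by 0.75 ± 0.06, and its relative APS4 fell by 0.67 ± 0.07. MMT, a methionine S-methyltransferase, rose by 0.67 ± 0.05, evenly over myb72-2 (0.69), oxMYB72 (0.70) and Col-0 (0.63).

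Genes of amino acid and protein degradation were called in both directions. In leucine breakdown IVD fell by 0.73 ± 0.09, MCCA by 0.63 ± 0.10 and MCCB by 0.24 ± 0.06 on the log2 scale. AT4G33150, the lysine-degrading LKR/SDH enzyme of the same list, fell by 0.51 ± 0.07, and ALDH6B2 rose by 0.27 ± 0.06, so that 4 of 9 members were lower and 1 higher (median -0.15). Of 12 ubiquitin-conjugating enzymes 4 were lower and 3 higher (median -0.09), against 2 lower and 1 higher with the RNA quality covariate. UBC32, an enzyme of protein quality control in the endoplasmic reticulum, fell by 0.52 ± 0.06, at 8.45 to 8.76 with WCS417 and 8.90 to 9.27 in Ctrl. UBC16 fell by 0.42 ± 0.07 on the log2 scale and UBC29 rose by 0.52 ± 0.07. Cytosolic chaperones were lower in 5 of 12 and higher in 2 (median -0.17), against 2 lower and 1 higher with the covariate and 3 lower without Col-0. The co-chaperones Hop3 (-1.21 ± 0.13) and Fes1C (-0.51 ± 0.09) led the falls, while Hsp70-2 rose by 0.56 ± 0.07. Glutathione transferases were lower in 6 of 13 and higher in 2 (median 0.02; 1 higher with the covariate). GSTU22 was at -0.94 ± 0.07 and GSTU16 at -0.82 ± 0.08, but the largest change of the list was the rise of GSTU20 (1.33 ± 0.09).

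Signalling genes held both directions. Of 16 immune signalling genes 6 were higher and 3 lower (median 0.12), but the median was 0.17 in myb72-2, -0.06 in oxMYB72 and 0.15 in Col-0. The F test called 5 of the 16, against 258 of all 13350 genes. WRKY53, a transcription factor, was at 1.35 ± 0.08, PUB23, a ubiquitin ligase that dampens immunity, at 0.74 ± 0.07, and GRX480 at -1.03 ± 0.08. STZ and PR-1-LIKE, both called higher, had opposite signs between genotypes. Of 8 calmodulin-like genes 3 were higher and 1 lower (median 0.006), but with the RNA quality covariate 1 was higher and 0 lower, and without myb72-2 1 was higher and 2 were lower. CML38 rose by 1.02 ± 0.10, whereas CML37 (0.45 ± 0.10) was called in myb72-2 alone. In the average CML37 lost its call with the covariate (limma adjusted p = 0.145) and without myb72-2 (limma adjusted p = 0.0721). Glutamate receptor genes were higher in 5 of 8 and lower in 1 (median 0.24), but 1 was higher with the covariate, 1 without myb72-2, 2 without Col-0 and 3 without oxMYB72. GLR2.8 was at 0.35 ± 0.07 and GLR2.9 at 0.34 ± 0.06. These 2 dim genes overlapped between treatments, at 3.40 to 4.28 with WCS417 and 3.32 to 3.72 in Ctrl for GLR2.8. Their rises were called in myb72-2 (0.70 and 0.59) but not in oxMYB72 (0.09 and 0.15) or Col-0 (0.27 and 0.27), and both lost the call in the average without myb72-2 (adjusted p = 0.117 and 0.0536). GLR2.9 lost it with the covariate too (adjusted p = 0.0903). Of 18 secreted RALF and CLE peptides 5 were higher and 5 lower (median 0.10), against 3 higher and 3 lower without oxMYB72 and 3 higher with the covariate. RALFL32 fell by 0.57 ± 0.07 on the log2 scale, at 10.94 to 11.49 with WCS417 and 11.58 to 11.96 in Ctrl. The 2 sources of the vascular TDIF peptide went opposite ways. CLE44 fell by 0.28 ± 0.06, while CLE41 rose in the average by 0.27 ± 0.06, with a response that differed between genotypes (limma F test, adjusted p = 0.0202). RALFL34 rose by 0.43 ± 0.08. Of 11 genes of tetrapyrrole synthesis, all named above, 4 were higher and 2 lower (median 0.13), and with the covariate 1 was higher and 2 were lower.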

How the data were processed

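Expression of root RNA was measured on 18 Affymetrix ATH1 arrays. The authors deposited log2 values made with RMA, per the submitters' processing notes (version not given in the sources used here). RMA equalizes the distributions of arrays, which hides a shift common to most transcripts. Groups and replicates came from the sample titles. Of 22810 probe sets 64 controls were left out. Platform annotation, updated through RefSeq TAIR10.1, named 1 gene for 13513 probe sets, several for 503 and none for 8730.

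In R 4.3.3, limma 3.58.1 was fitted with 1 mean for each of the 6 groups and gave the average of the 3 within-genotype differences, two-sided, moderated by eBayes, adjusted by Benjamini-Hochberg over 22746 probe sets. Small means under 0.5. On simulated arrays with independent normal noise, 34%, 64%, 90% and 100% of 100 probe sets each changed by 0.2, 0.3, 0.5 and 1 were called, with 11 false calls. Far fewer probe sets were changed there than were called in the data. The Benjamini-Hochberg threshold depends on that share, so these rates do not carry over to the data. Named genes were the 10 small and 5 medium changes per direction with the largest moderated t among same-sign, separated, single-gene probe sets. The 2 leading members per gene list for 20 lists, and the smallest single-gene call per direction, were named too. Other members named were chosen after their values were seen. Members and lists were chosen with earlier results of these data known, and 36 of the lists were added after the annotation was read. Alternatives were other scalings, models, filters, bounds and covariates, and each array and genotype left out. Promoter sequences were not used here. Figures were drawn with matplotlib 3.10.9.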

Additional observations from a re-analysis of the deposited data

Results flagged for a closer look

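Of 312 genes examined (those named and all members of the 20 gene lists), 22 had WCS417 responses that differed between genotypes by the moderated F test in limma. Over all 13350 genes 258 differed by this test. In 21 of the 22 the oxMYB72 response was the one farthest from the other 2. How often that held among all differing genes was not counted, and the lists were chosen with earlier results known, so it is not read as a trait of the 312. In the values that follow, the differences on the log2 scale are given for myb72-2, oxMYB72 and Col-0 in that order, and adjusted p is that of the F test.

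BGLU42 was the exception, lowest in myb72-2, with 0.66, 2.35 and 2.17 (adjusted p = 1.18e-06). Larger in oxMYB72 were UGT72E1 (0.37, 1.57 and 0.49; adjusted p = 1.09e-05), GSTU20 (0.92, 2.02 and 1.05; adjusted p = 0.0104), EXPB2 (-0.19, 1.89 and 0.20; adjusted p = 0.000254), BHLH101 (-0.07, 1.56 and 0.46; adjusted p = 0.000641), PR-1-LIKE (-0.34, 1.17 and 0.24; adjusted p = 0.000849), CLE41 (0.004, 0.70 and 0.10; adjusted p = 0.0202) and CLE26 (0.09, 0.72 and -0.17; adjusted p = 0.00882). More negative in oxMYB72 were SUFE2 (-1.07, -2.13 and -1.28; adjusted p = 0.021), GRX480 (-0.56, -1.64 and -0.91; adjusted p = 0.00724) and BIK1 (0.09, -0.53 and 0.14; adjusted p = 0.0242).

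Smaller rises in oxMYB72 were found in AT3G12900 (5.09, 3.68 and 5.40; adjusted p = 0.00195), AT3G13610, the F6'H1 gene of coumarin synthesis (1.84, 0.40 and 2.02; adjusted p = 2.24e-06), ARL (1.11, 0.43 and 1.03; adjusted p = 0.0253), AT3G60540 (1.03, 0.41 and 1.19; adjusted p = 0.0166) and HMT-1 (1.53, 0.81 and 1.24; adjusted p = 0.0166). AT1G28680 was near 0 in oxMYB72 (0.52, 0.01 and 0.73; adjusted p = 0.0278). All these values are differences from the Ctrl level of the same genotype, and Ctrl levels were not equal. The mean of the 5 coumarin genes was 8.375 to 8.719 in untreated oxMYB72. It was 7.639 to 7.913 in untreated myb72-2 and 7.563 to 7.791 in untreated Col-0. With WCS417 it was 9.695 to 9.877 in oxMYB72, 9.605 to 9.899 in myb72-2 and 10.074 to 10.155 in Col-0. PSAE-1, of the photosynthesis group, fell less in oxMYB72 (-1.05, -0.37 and -1.08; adjusted p = 0.0485). The mean of that group was 5.65 to 5.807 in untreated oxMYB72, 5.951 to 6.016 in untreated myb72-2 and 5.945 to 6.102 in untreated Col-0. With WCS417 it was 5.337 to 5.504 in oxMYB72, 5.307 to 5.499 in myb72-2 and 5.485 to 5.539 in Col-0. Opposite signs between oxMYB72 and both others were seen in CCOAMT (1.87, -0.10 and 2.02; adjusted p = 0.00461), ATGLR1.2 (0.97, -0.48 and 0.50; adjusted p = 0.00303), STZ (0.83, -0.46 and 0.87; adjusted p = 0.000741) and PUB24 (0.36, -0.56 and 0.29; adjusted p = 0.0272).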

How the results depend on the processing

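With the RNA quality covariate 4526 probe sets were called (2245 higher, 2281 lower), 2263 were small and of the same sign (1145 higher, 1118 lower) and 999 were also separated. Against a minimum difference of 0.1, 5384 were called (2455 higher, 2929 lower) and 3314 were small and of the same sign (1515 higher, 1799 lower). Separated small changes numbered 961 with a bound of 0.4, 2295 without myb72-2 and 2398 without oxMYB72, settings that ask for less change or fewer genotypes. Without oxMYB72, 4 probe sets differed between genotypes. For the other moves the cause was not tested.

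Leaving out each array in turn gave 7841 to 8991 calls (3689 to 4492 higher, 4138 to 4499 lower), 5556 to 6348 small same-sign calls (2631 to 3225 higher, 2920 to 3126 lower), 1610 to 1788 separated ones, and 328 to 596 that differed between genotypes. With an array left out the rule of separation asks for less, so the separated counts are not read against the full count. Called probe sets were higher in 48.1% of cases and in 42.6% without oxMYB72. The median over all probe sets was 0.0165 as deposited, 0.0124 after median centring and -0.00481 after quantile normalization. For the 72 named genes, 2321 of 2373 values kept direction and call, 52 lost the call and 0 reversed. Those 52 belong to GRXC2, AT2G35330, GLR2.9, GLR2.8, ILR3, GSA1, HEMB1 and CML37.

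Same-numbered arrays of a genotype correlated at -0.145 to 0.152 in their deviations from group means, so the numbers are not taken as pairs. With the replicate block 8547 probe sets were called, 6155 were small and of the same sign, 1528 were separated and 523 differed between genotypes. Depth has no meaning for arrays, and dim probe sets gave few calls.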
